A study of Mus musculus with 90 samples.

Results

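The Hox cluster genes are the homeobox genes that the mouse carries in 4 clusters, named HoxA, HoxB, HoxC and HoxD. Members were taken as the rows whose Entrez Gene identifier maps to a symbol made of Hox, a cluster letter and a paralog number, a rule that uses no measured value. The RefSeq table names 39 such genes, of which 38 had a row among the 20414 genes of the expression table. Hoxc12 was not analysed here. The 38 genes were 11 of HoxA (chr6:52155590-52260880, all on the minus strand), 10 of HoxB (chr11:96194316-96368256, plus strand), 8 of HoxC (chr15:102921103-103036852, plus strand) and 9 of HoxD (chr2:74668310-74765142, plus strand), in the GENCODE annotation of GRCm38.

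Hox genes encode transcription factors that give cells their position along the body axis. Within a cluster, genes at the 3′ end (low paralog numbers) are used in anterior parts and genes at the 5′ end (high paralog numbers) in posterior parts, and adult cells of connective tissue, muscle and many epithelia keep a code of this kind. In the female reproductive tract, which forms from the Müllerian duct, Hoxa9, Hoxa10, Hoxa11 and Hoxa13 are known from oviduct, uterus, lower uterus with cervix, and vagina in this order, and Hoxa10 and Hoxa11 are needed for a uterus that can receive an embryo and are known to respond to estrogen and progesterone.

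RNA was sequenced from 15 tissues of female C57BL/6 mice (C57BL/6J in the study's text), 10 weeks old by the labels, without any genetic change or drug. Vaginal smears put each mouse in estrus or in diestrus, and each tissue and phase had 3 libraries, 90 in all. By the study's text the 15 tissues of a phase were dissected from the same 3 mice, so libraries of different tissues share animals, but no label ties a library to its animal. Levels are FPKM, fragments scaled by transcript length and by the mapped fragments of the library, a scale per length on which genes can be set side by side. The tissue labelled womb is called uterus, and BAT and WAT are brown and white adipose tissue.

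Promoters of 4 posterior HoxA and HoxD members are shown, because their levels are compared between phases of the ovarian cycle and receptors of both ovarian steroids bind short DNA motifs. RefSeq (GRCm38.p6) gave 24 start sites for 22 of the members, and each window holds the 250 bases before a start. Capitals mark AGGTCA, the core of the estrogen response element, or TGTTCT, a core bound by the progesterone receptor, on either strand. The window of Hoxa10 holds neither. The windows lie at chr6:52227371-52227620 (minus strand) for Hoxa9, chr6:52240855-52241104 (minus) for the distal start of Hoxa10, chr6:52245811-52246060 (minus) for Hoxa11 and chr2:74691641-74691890 (plus) for Hoxd10.
Hoxa9: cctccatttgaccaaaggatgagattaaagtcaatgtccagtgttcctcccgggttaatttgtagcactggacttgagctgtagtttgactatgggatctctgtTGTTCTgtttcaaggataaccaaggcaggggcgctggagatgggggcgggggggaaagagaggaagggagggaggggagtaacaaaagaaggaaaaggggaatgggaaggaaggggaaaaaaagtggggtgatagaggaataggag
Hoxa10: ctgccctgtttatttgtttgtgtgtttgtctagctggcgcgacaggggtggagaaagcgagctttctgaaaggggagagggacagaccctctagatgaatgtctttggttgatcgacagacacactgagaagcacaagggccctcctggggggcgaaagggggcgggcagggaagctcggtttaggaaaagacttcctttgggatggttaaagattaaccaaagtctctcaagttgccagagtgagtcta
Hoxa11: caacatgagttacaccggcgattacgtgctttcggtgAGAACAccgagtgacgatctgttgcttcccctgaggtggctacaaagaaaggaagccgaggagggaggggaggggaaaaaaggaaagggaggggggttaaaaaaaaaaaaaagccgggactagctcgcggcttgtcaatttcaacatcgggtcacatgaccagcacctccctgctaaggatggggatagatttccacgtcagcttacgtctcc
Hoxd10: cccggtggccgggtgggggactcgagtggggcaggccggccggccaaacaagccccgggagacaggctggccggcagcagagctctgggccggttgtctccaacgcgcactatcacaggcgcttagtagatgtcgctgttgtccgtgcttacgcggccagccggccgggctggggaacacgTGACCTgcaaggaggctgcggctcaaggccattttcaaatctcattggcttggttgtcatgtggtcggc
The estrogen core was found in 6 of the 24 Hox promoters (25.0%), those of Hoxb4, Hoxc4, Hoxd3, Hoxd4, Hoxd8 and Hoxd10, and in 14.02% of the 32851 promoters of all genes. The first base of the site in Hoxd10 lay 69 bases before the start. TGTTCT was found in 2 Hox promoters (8.33%), those of Hoxa9 and Hoxa11, and in 16.08% of all. The full element, GGTCA and TGACC with 3 bases between them, was in 0 of the 24 and in 0.0639% of all promoters. A match is a description of the letters only.

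Depth and tissue identity bear on several of these values. Of 90 libraries, 89 listed 2404 to 4820 genes at 0, while BAT estrus replicate 3 listed 12048 and had no value between 0 and 0.11 FPKM, so low levels are poorly measured in it. Summed markers matched the labels in most tissues, as in ovary (4019 to 5883 FPKM over 6 ovary markers, 10.7 to 28.3 in uterus). In uterus, simple epithelium markers summed to 996 to 2520 FPKM, while 3 markers of uterine glands were low (1.82 to 23.5). Uterus estrus replicate 3 stood apart, with 3203 FPKM of 4 ciliated and oviduct markers (102 to 264 in the other uterus libraries) and 2222 FPKM of 6 squamous markers of cervix and vagina (0.51 to 68.5). Ovary estrus replicate 3 had 1778 FPKM of the same oviduct markers, with 22.0 to 68.8 in the other ovaries. In 5 of 6 aorta libraries brown adipocyte markers summed to 2491 to 4769 FPKM and cardiomyocyte markers to 733 to 1565, against 312 and 111 in aorta estrus replicate 1, which in turn had 15868 FPKM of smooth muscle markers (1702 to 2533 in the others). In whole tissue, fewer cells of a type and less RNA per cell cannot be told apart.

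Hox genes were expressed in 13 of the 15 tissues and were nearly silent in the forebrain. A mean of 1 FPKM or more across 6 libraries of the same tissue was reached by 31 of the 38 members in at least 1 tissue, and in 226 of the 570 pairs of gene and tissue. The 7 members that stayed under 1 FPKM everywhere lie at cluster ends, Hoxa13, Hoxb1, Hoxb13, Hoxc13, Hoxd1, Hoxd12 and Hoxd13. Their highest tissue means were 0.73 FPKM for Hoxa13 (in WAT), 0.113 for Hoxb13 (in duodenum) and 0.053 or less for the other 5. Even these low members were listed above 0 in at least 3 libraries each, so none of the 38 was at 0 in all 90. Kidney had 29 members at 1 FPKM or more, uterus, vein and WAT 28 each, ovary 24, aorta 22, BAT 18, skeletal muscle 17 and stomach 16. Duodenum had 9, spleen 4, heart 2, liver 1, and cerebrum and hypothalamus 0. In the 2 forebrain regions the summed level of all 38 members was 0.353 ± 0.116 and 0.592 ± 0.183 FPKM (SD, n = 6), compared with 637 ± 138 in uterus and 496 ± 45.2 in kidney.

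**Figure D1:**
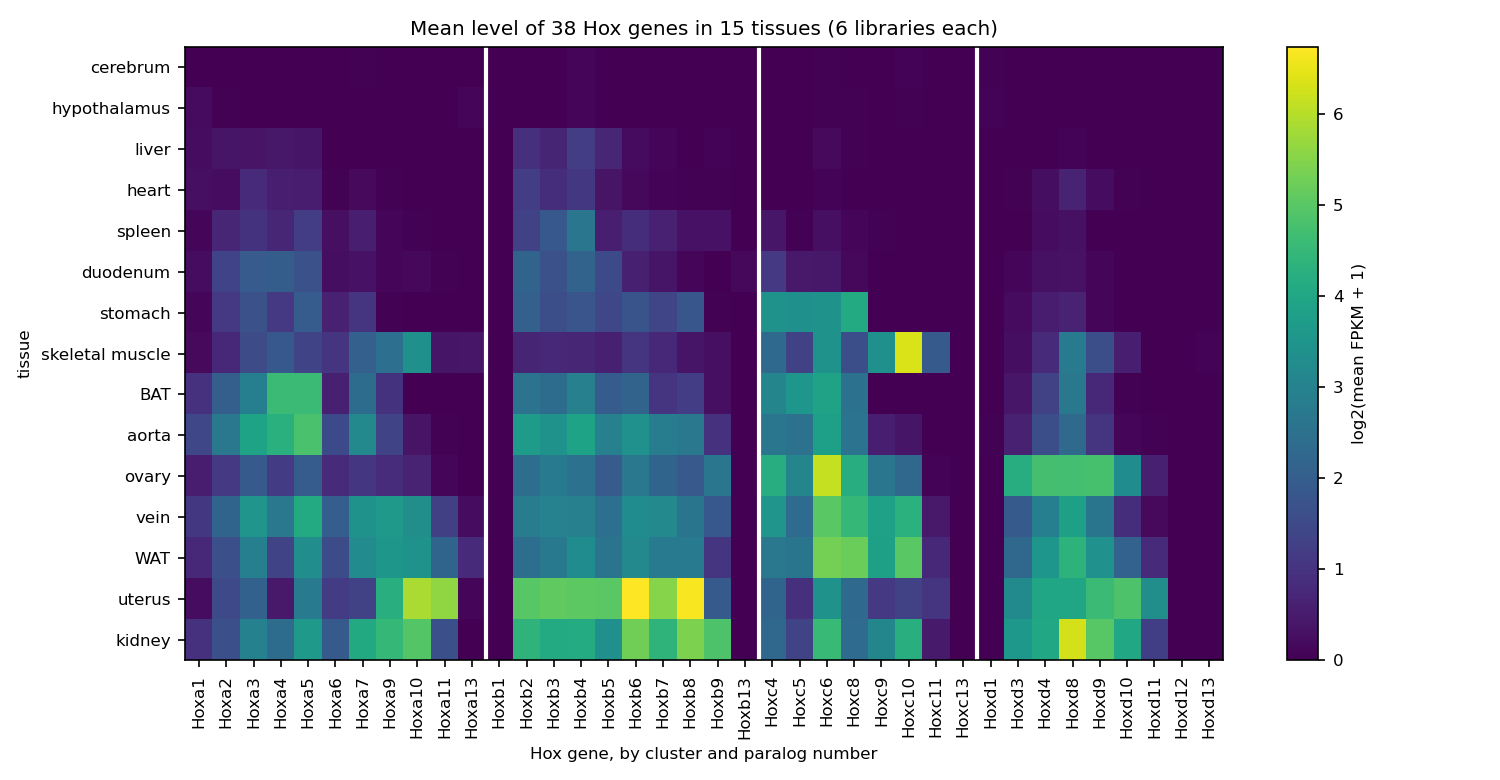
Mean FPKM over 6 libraries, as log2(mean + 1) in colour, of 38 Hox genes (columns, by cluster and paralog number, with white lines between clusters) in 15 tissues (rows). Cerebrum and hypothalamus are dark throughout, Hoxc10 stands out in skeletal muscle, Hoxd8 in kidney, Hoxc6 in ovary, and Hoxb6, Hoxb8, Hoxa10 and Hoxa11 in uterus.

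The leading members differed from tissue to tissue. Skeletal muscle was led by Hoxc10, which is used in the hindlimb, at 80.4 ± 4.99 FPKM (SD, n = 6), followed by Hoxc6 and Hoxc9 at 10.0 and 9.41. The Hoxc10 values were 79.0, 87.4 and 84.6 in estrus and 73.1, 79.6 and 79.0 in diestrus, a narrow range. Kidney was led by Hoxd8 (78.3 ± 5.52 FPKM), Hoxb8 (41.4 ± 7.47) and Hoxb6 (37.6 ± 8.38). Ovary was led by Hoxc6 (69.5 ± 11.8), with Hoxd9 and Hoxd4 at 26.1 and 25.8, which did not differ beyond their spread of 6.16 and 3.73. WAT and vein shared a set of HoxC genes at the top, Hoxc6, Hoxc8 and Hoxc10, with 39.1, 36.3 and 31.0 FPKM in WAT and 31.2, 21.5 and 18.8 in vein. Aorta was led by Hoxa5 (26.6 ± 5.13), Hoxa4 (18.5, from 7.40 to 25.7) and Hoxb4 (14.1 ± 5.56), and BAT by Hoxa4 (22.9, from 13.8 to 44.4), Hoxa5 (22.8 ± 13.8) and Hoxc6 (13.8 ± 3.23). In BAT the first pair cannot be ordered, and the shallow library had the highest values of both, 44.4 and 50.4. Stomach was led by Hoxc8, Hoxc4 and Hoxc6, with SDs above their means of 16.3, 10.1 and 9.88 FPKM. Low levels of paralogs 2 to 5 remained in duodenum (Hoxb2 3.50, Hoxb4 3.42 and Hoxa4 2.97 FPKM), spleen (Hoxb4 5.22, Hoxb3 2.65 and Hoxb2 1.45), heart (Hoxb2 1.33 and Hoxb4 1.11) and liver (Hoxb4 1.32). Hoxb4, which is known from blood stem cells, was the member with the widest use, at 1 FPKM or more in 12 tissues.

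The clusters took different shares of the summed Hox FPKM. HoxC held 73.4% in skeletal muscle, 63.6% in stomach, 47.1% in WAT, 44.5% in ovary and 40.1% in vein. HoxA led in BAT (47.2%) and aorta (43.5%). HoxB led in liver (68.8%), spleen (67.4%), uterus (59.5%), heart (53.3%), duodenum (47.8%) and kidney (38.1%). HoxD led in none, and held most in ovary (38.3%) and kidney (30.6%).

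The position of expression along the clusters was summarised per library as the mean paralog number weighted by FPKM. It was lowest in liver (3.82 ± 0.197, SD, n = 6), duodenum (3.90 ± 0.196), heart (3.99 ± 0.258) and spleen (4.23 ± 0.107). Aorta (4.82 ± 0.125), BAT (4.87 ± 0.0474) and stomach (5.07 ± 0.617) followed, then ovary (6.18 ± 0.117), vein (6.53 ± 0.0834), uterus (6.96 ± 0.936), kidney (7.05 ± 0.0657) and WAT (7.07 ± 0.0410). Skeletal muscle was the most posterior at 8.76 ± 0.123. Neighbours in this order often overlapped: the ranges of liver, duodenum, heart and spleen did, those of aorta, BAT and stomach did, and so did those of kidney and WAT. The uterus libraries ranged from 5.56 to 8.42, which takes in ovary, vein, kidney and WAT and the upper end of stomach, so the place of uterus is not fixed. The share of Hox FPKM held by paralogs 9 to 13 was 73.2% in skeletal muscle, 31.2% in kidney, 30.2% in WAT, 28.6% in uterus, 25.3% in vein and 18.9% in ovary, and 2.51% or less in aorta, BAT and stomach.

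**Figure D2:**
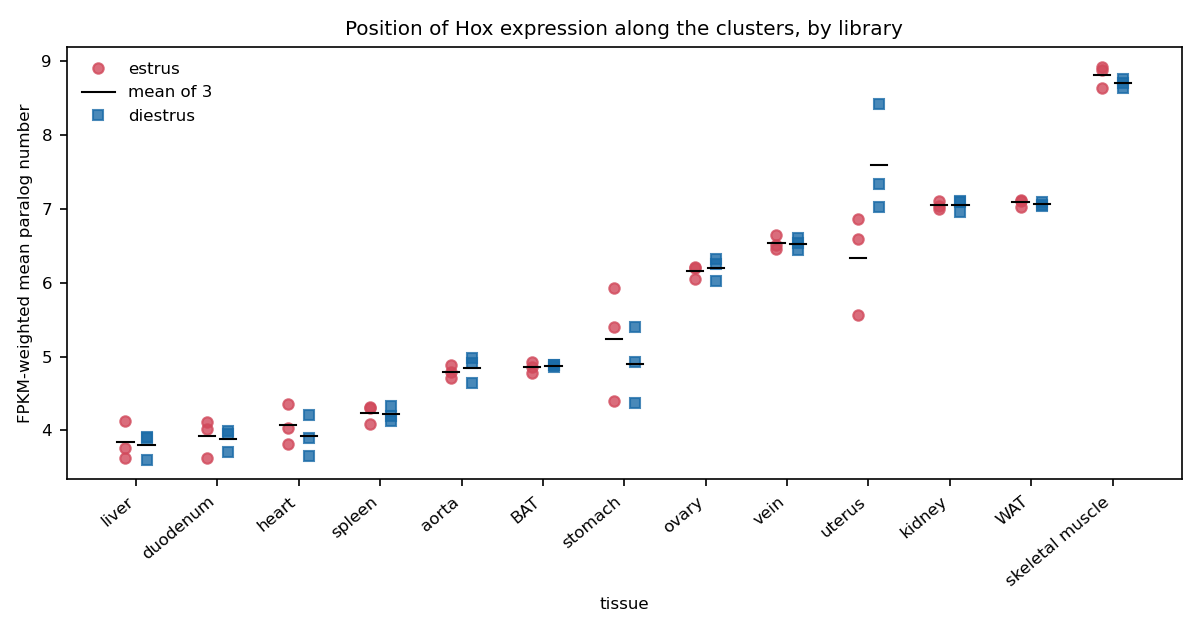
FPKM-weighted mean paralog number (vertical axis) of each library in 13 tissues, with circles for estrus, squares for diestrus and black lines for the mean of 3. In uterus the 3 estrus libraries (5.56 to 6.86) lie below the 3 diestrus libraries (7.03 to 8.42), while the phases overlap in the other 12 tissues.

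Neighbouring members of a cluster had similar profiles. Over the 15 tissue means of log2(FPKM + 1), the median Pearson's r was 0.936 for the 27 pairs of neighbours among the 31 expressed members, 0.752 for the other 82 pairs of the same cluster, 0.727 for 32 pairs of paralogs in different clusters and 0.615 for the other 324 pairs. These correlations describe tissues that share libraries and depth across all pairs, and have no test. Hoxa10 and Hoxa11 had an r of 0.846.

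In uterus, HoxB was followed by HoxA with 21.7% of the Hox FPKM, HoxD with 15.3% and HoxC with 3.46%. Of 31 expressed members, 11 had their highest mean in uterus: Hoxa10, Hoxa11, Hoxb2 to Hoxb8, Hoxd10 and Hoxd11. The share of all genes with their highest mean in uterus is not given here. For Hoxa10, Hoxb2, Hoxb3, Hoxb4, Hoxd10 and Hoxd11 the uterus libraries overlapped those of kidney, the next highest tissue. Among them only Hoxd11 was called in the comparison of uterus with kidney, at the limits given below. Hoxb6 and Hoxb8 were the highest at 105.2 ± 30.7 and 100.3 ± 36.1 FPKM (SD, n = 6). Hoxb9, the next gene of the cluster, was at 2.73 ± 1.42 FPKM, so the level dropped sharply between paralogs 8 and 9. Hoxa11 was the member most limited to uterus, with a mean of 48.1 FPKM there and a next highest mean of 3.50 in WAT. Hoxa13, the paralog known from cervix and vagina, reached 0.19 and 0.14 FPKM in estrus replicates 2 and 3 and 0 to 0.05 in the other 4 libraries.

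The comparison of estrus with diestrus asks which genes change with the ovarian cycle, and the posterior HoxA genes gave the widest gaps between phases in uterus. Hoxa10 had 23.9, 39.8 and 7.55 FPKM at estrus and 48.1, 58.4 and 170.05 at diestrus. Every diestrus library was above every estrus library, and diestrus replicate 3 was far above the rest. Hoxa11 had 12.5, 31.7 and 8.06 FPKM at estrus and 44.5, 47.0 and 144.7 at diestrus, again without overlap. On the log2(FPKM + 1) scale, which understates changes of low genes, estrus minus diestrus was -1.95 (SE 0.69) for Hoxa10 and -2.10 (SE 0.62) for Hoxa11. Neither passed limma's adjustment over the 13706 genes tested in uterus (adjusted p = 0.897 for both, unadjusted p = 0.0253 and 0.0114). Hoxa9 had 12.9, 18.9 and 4.91 FPKM at estrus and 16.6, 19.1 and 35.1 at diestrus, which overlap (-0.99, SE 0.50). The 5 anterior HoxA members tested had positive differences, 0.40 for Hoxa2, 0.58 for Hoxa3, 1.19 for Hoxa5, 0.73 for Hoxa6 and 0.51 for Hoxa7, none past the test. Hoxa5 had 2.85, 3.35 and 22.98 FPKM at estrus and 1.53, 2.61 and 2.69 at diestrus, so estrus replicate 3 sets most of its difference, which was 0.34 without that library.

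In HoxD the difference became more negative from the 3′ to the 5′ end. Hoxd9 had 16.2, 23.8 and 4.87 FPKM at estrus and 24.4, 24.4 and 45.3 at diestrus (-1.19, SE 0.56). Hoxd10 had 21.2, 25.6 and 4.70 FPKM at estrus and 25.7, 30.3 and 58.9 at diestrus (-1.30, SE 0.63). Hoxd11 had 5.66, 7.18 and 1.03 FPKM at estrus and 8.44, 9.81 and 21.8 at diestrus (-1.47, SE 0.60). All 3 genes were without overlap, but for Hoxd9 and Hoxd10 estrus replicate 2 lay just below the lowest diestrus library. Without estrus replicate 3 the differences were -0.59, -0.60 and -0.85. The difference was -0.65 (SE 0.31) for Hoxd8, -0.13 for Hoxd4 and 0.24 for Hoxd3.

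HoxB genes, the most abundant, gave small differences: 0.29 for Hoxb2, 0.43 for Hoxb3, 0.26 for Hoxb5, 0.34 for Hoxb6, -0.17 for Hoxb7, -0.03 for Hoxb8 and -0.44 for Hoxb9. Hoxb4 was the exception, with 23.7, 24.6 and 90.2 FPKM at estrus and 13.97, 21.2 and 15.6 at diestrus (1.13, SE 0.53). Its 2 lower estrus values exceeded the highest diestrus value by little, and without estrus replicate 3 the difference was 0.51. Among HoxC genes the differences were 1.06 for Hoxc4, 1.22 for Hoxc6, 1.09 for Hoxc8, 0.70 for Hoxc9, 0.86 for Hoxc10 and -0.21 for Hoxc11. Without estrus replicate 3 they were 0.38 for Hoxc4, 1.02 for Hoxc6, -0.083 for Hoxc8, -0.015 for Hoxc9, 0.81 for Hoxc10 and 0.083 for Hoxc11. Hoxc6 had 21.4, 5.69 and 17.9 FPKM at estrus and 4.0, 5.59 and 5.75 at diestrus. It was the only HoxC member with an unadjusted p under 0.05 (0.0354, adjusted p = 0.897, limma). Hoxc8 had 19.2 FPKM in estrus replicate 3 and 0.54 to 1.40 in the other 5 libraries.

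**Figure D3:**
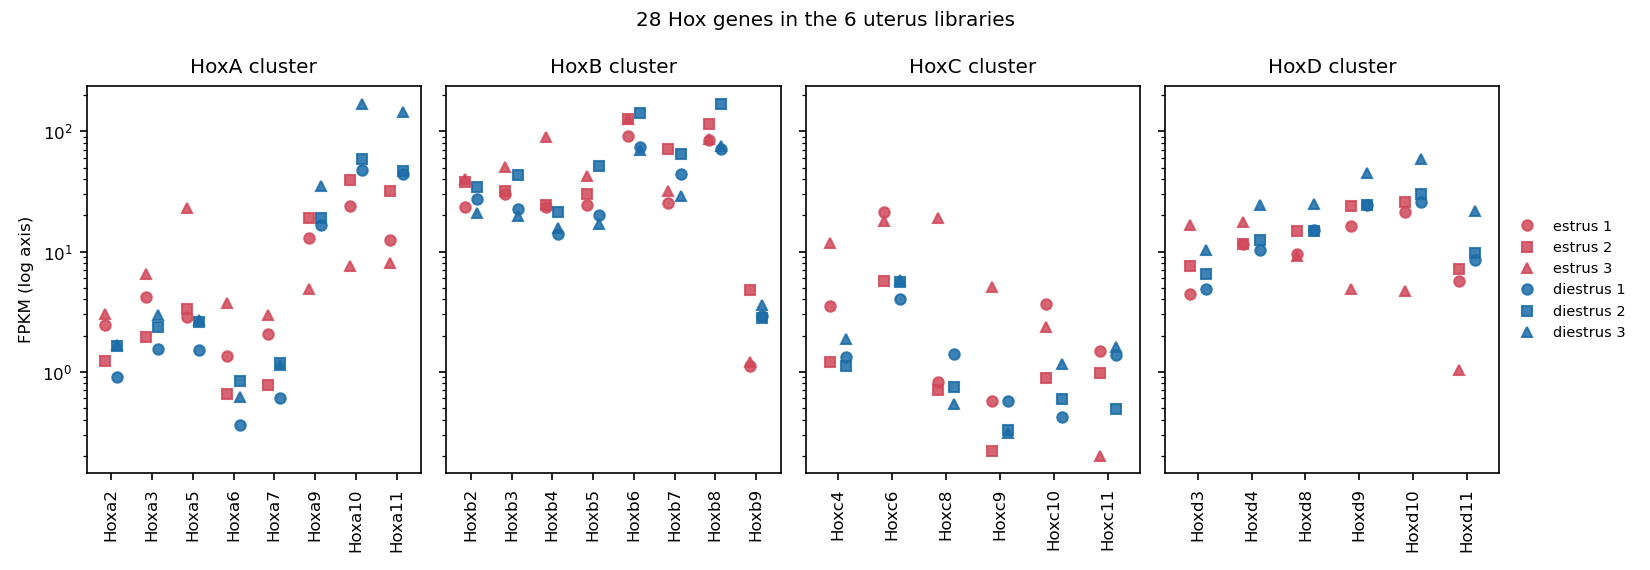
FPKM (log axis) of the 28 Hox genes whose mean in uterus was 1 FPKM or more, by cluster and paralog number, for the 3 estrus (red) and 3 diestrus (blue) libraries. Blue points lie above red ones for Hoxa10, Hoxa11 and Hoxd9 to Hoxd11, and the red triangles of estrus replicate 3 are low for these genes and high for Hoxa5, Hoxb4 and Hoxc8.

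With limma, 0 of the 28 members tested in uterus were called (an absolute log2 fold change of 1 or more with an adjusted p not above 0.05), against 0% of all 13706 genes. An unadjusted p under 0.05 was found for 4 of the 28, Hoxa10, Hoxa11, Hoxd11 and Hoxc6, and for 3.74% of all genes. Without overlap of the phases, 5 of the 28 were lower in estrus (Hoxa10, Hoxa11, Hoxd9, Hoxd10 and Hoxd11) and 2 higher (Hoxa5 and Hoxb4), compared with 4.67% and 3.25% of all genes. The exact two-sided permutation test gave p = 0.1 for these 7, the smallest that 3 against 3 libraries allow. Phases without overlap always give this value, so the test adds nothing to the lack of overlap. Some members, such as Hoxc8 and Hoxa6, passed the filter only through the estrus libraries where they were high, so the direction was counted over all 38 members with no filter and no test. Estrus was above diestrus for 18 of the 23 members of paralog groups under 9, below for 4 and equal for 1. Of the 15 members of groups 9 and above, 3 were above, 9 below and 3 equal, and 48.1% of the 18690 genes with any difference were above. The weighted mean paralog number was 6.59, 6.86 and 5.56 in the estrus libraries and 7.33, 7.03 and 8.42 in the diestrus libraries. One fit of all 90 libraries, in which the tissues share 1 estimate of the spread and libraries of the same mice count as independent, called 6 of 27 members in uterus (background 4.73%): Hoxa10 (adjusted p = 1.13e-06), Hoxa11 (4.26e-09), Hoxd9 (0.00355) and Hoxd10 (0.00512) as lower in estrus, and Hoxa5 (0.0242) and Hoxb4 (0.00342) as higher.

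Cell type markers also differed between the uterus libraries. Estrus replicate 3, with its oviduct and squamous markers, had the lowest Hoxa10 and Hoxa11. Diestrus replicate 3 had the highest, and its stroma markers summed to 2220 FPKM and its smooth muscle markers to 3458. Estrus replicate 1 had even more of both, 2773 and 5579 FPKM, and the other 4 libraries had 533 to 1126 and 1112 to 1775. The part of cell composition in the Hox differences was not tested. Without estrus replicate 3 the difference was -1.31 for Hoxa10 (unadjusted p = 0.0701) and -1.70 for Hoxa11 (unadjusted p = 0.0407, adjusted p = 1.00, limma). Then 5 of 28 members were lower and 2 higher in estrus without overlap, against 7.38% and 4.84% of all genes. Over all members with no filter, estrus was then above for 17 of the 23 members of groups under 9 and for 3 of the 15 of the groups above, and for 43.7% of all genes with a difference.

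In the other tissues limma also called 0 members between the phases, with 0% of all genes called in each tissue but skeletal muscle (0.00936%) and spleen (0.00798%). Over all 15 tissues an unadjusted p under 0.05 was found 21 times, the 4 of uterus included. In 6 tissues 0 of the members tested had such a p: kidney (29 tested, 2.87% of all genes), stomach (16, 7.38%), duodenum (9, 13.5%), spleen (4, 3.51%), heart (2, 6.1%) and liver (1, 5.6%). In vein 6 of 28 were lower in estrus (12.1% of all genes had such a p): Hoxa10, Hoxa11, Hoxb2, Hoxb3, Hoxb5 and Hoxd3. Vein Hoxd3 had 2.03, 1.71 and 2.49 FPKM at estrus and 3.31, 3.62 and 3.39 at diestrus (-0.54, SE 0.15, adjusted p = 0.412). Vein Hoxa10 had 6.06, 7.06 and 6.88 FPKM at estrus and 11.8, 14.3 and 8.07 at diestrus (-0.66, SE 0.20, adjusted p = 0.412), and Hoxa11 had 1.01, 0.82 and 0.54 against 2.06, 2.72 and 1.36. Without overlap, 8 of 28 members were lower in vein estrus and 12.9% of all genes. In ovary Hoxb4, Hoxb5 and Hoxc8 were higher in estrus at that unadjusted p (5.96% of all genes), and 5 of 24 members did not overlap in this direction (8.13%). Ovary Hoxb5 had 3.08, 3.02 and 4.72 FPKM at estrus and 1.85, 2.17 and 1.96 at diestrus (0.60, SE 0.18, adjusted p = 0.782). Its highest value came from the library with oviduct markers, and the other 2 estrus libraries also lay above diestrus.

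In aorta Hoxc4, Hoxc5 and Hoxc6 had an unadjusted p under 0.05 (3.11% of all genes), and these 3 of 22 members were lower in estrus without overlap (9.54%). Aorta Hoxc6 had 12.2, 7.25 and 9.92 FPKM at estrus and 16.4, 18.2 and 13.7 at diestrus (-0.68, SE 0.22, adjusted p = 0.933). In WAT the 3 were Hoxa3, Hoxb6 and Hoxd10, higher in estrus (5.97% of all genes), and 4 of 28 members did not overlap (9.25%). WAT Hoxd10 had 14.4, 1.51 and 2.09 FPKM at estrus and 0.32, 0.77 and 0.78 at diestrus (1.61, SE 0.63, adjusted p = 0.791), so the difference rests largely on estrus replicate 1. That library also had 3165 FPKM of stroma and 2905 of smooth muscle markers, with at most 1339 and 288 in the other WAT libraries, a part that was not tested. BAT Hoxb6 had 2.34, 2.30 and 0 FPKM at estrus and 4.59, 5.73 and 5.40 at diestrus (-1.48, SE 0.52, adjusted p = 0.332), where 12.8% of all genes had such a p and the 0 comes from the library with 12048 genes at 0. Skeletal muscle Hoxa9 had 5.21, 4.58 and 4.91 FPKM at estrus and 3.85, 4.37 and 3.96 at diestrus (0.22, SE 0.08, adjusted p = 0.194), where 20.8% of all genes had such a p.

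The mouse stomach has a forestomach lined by squamous epithelium beside its glandular part. In stomach, HoxC genes differed between libraries far more than between phases. Hoxc8 had 22.6, 0.29 and 62.9 FPKM at estrus and 10.2, 1.67 and 0 at diestrus. Hoxc4, Hoxc5, Hoxc6 and Hoxc8 together summed to 72.0, 1.83 and 165.7 FPKM at estrus and 28.6, 4.89 and 0.76 at diestrus. The 6 squamous markers followed the same order of libraries, with 5381, 92.4 and 8280 FPKM at estrus and 1096, 393 and 9.42 at diestrus. HoxA and HoxB genes were spread less and in another order: they summed to 64.7, 8.43 and 30.5 FPKM at estrus and 20.1, 14.04 and 11.7 at diestrus, beside smooth muscle markers of 6797, 329 and 2315 and of 1843, 744 and 804. Gastric epithelium markers, at 23200 to 39801 FPKM, were high in every library. All 16 members tested had a positive difference between phases (median 0.70, all genes -0.02), and 0 of the 16 were without overlap, where 1.64% of all genes were higher and 12% lower without overlap. The one fit of all libraries called Hoxc4, Hoxc5 and Hoxc6 as higher in stomach estrus (3 of 27, background 1.66%). The part of squamous epithelium and smooth muscle in these values was not tested.

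**Figure D4:**
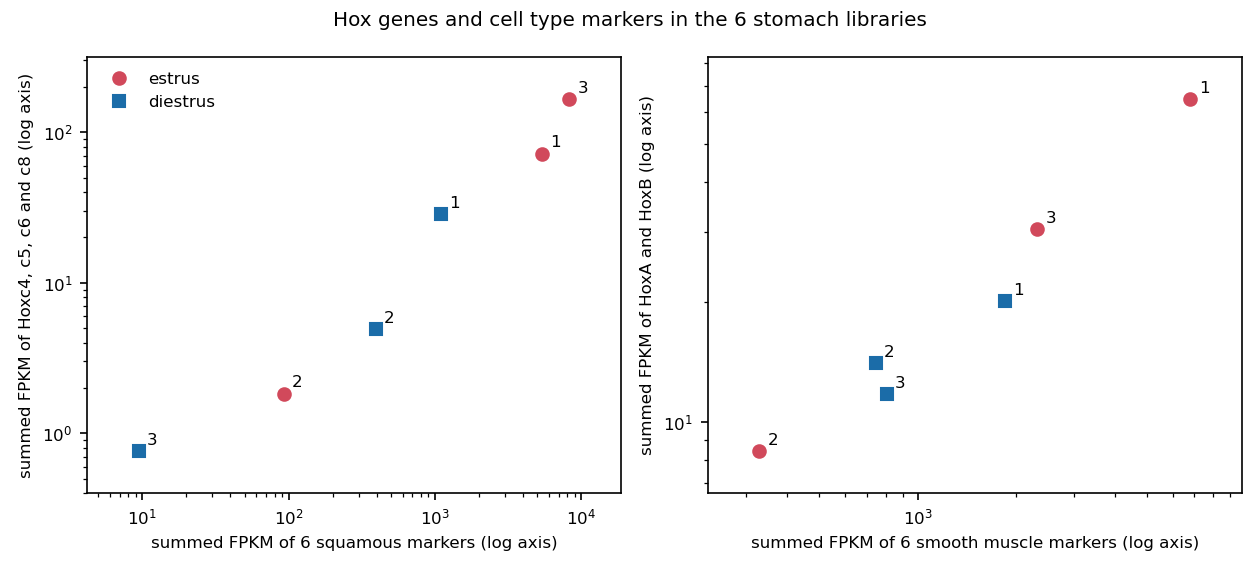
Summed FPKM of Hoxc4, Hoxc5, Hoxc6 and Hoxc8 against 6 squamous epithelium markers (left) and of all HoxA and HoxB genes against 6 smooth muscle markers (right) in the 6 stomach libraries, all on log axes, with replicate numbers beside the points. The HoxC sum and the squamous sum put the libraries in the same order, from diestrus replicate 3 to estrus replicate 3.

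Pairs of related tissues were compared to show where along the clusters they part. Libraries counted as independent in these fits, although tissues share mice. A member could pass the filter through 1 tissue alone. Of those tested in uterus and ovary, 5 averaged under 1 FPKM in ovary and 1 in uterus. Of those in uterus and kidney, 2 did so in uterus. Likewise 5 in aorta and vein did so in aorta, 9 in WAT and BAT in BAT, and 5 in duodenum and stomach in duodenum. The direction of such members was fixed by the filter. Uterus against ovary, both reproductive, called 19 of 28 members (limma at the same limits, with phase as a covariate), compared with 19% of all genes. Of the 19, 12 were higher in uterus (8.66% of all genes) and 7 lower (10.4%), and the median difference was 0.41 for the members and -0.15 for all genes. The clusters went different ways: HoxB was higher in uterus (7 of 8 called), HoxC lower (6 of 6), and of HoxA the posterior Hoxa9, Hoxa10 and Hoxa11 were higher while the other 5 were not called. Hoxb9 was the exception in HoxB (-0.82, SE 0.24, not called). Hoxa9, Hoxa10, Hoxa11 and Hoxd11, all called as higher in uterus, averaged 0.823, 0.59, 0.0633 and 0.495 FPKM in ovary. Hoxc5, called as lower, averaged 0.878 FPKM in uterus. The direction of all these members was fixed by the filter. Hoxb8 had 85.5, 114.6 and 87.0 FPKM at estrus and 71.6, 167.5 and 75.9 at diestrus of uterus, and 1.06 to 9.01 in ovary. It was 5.01 higher in uterus on the log2(FPKM + 1) scale (SE 0.36, adjusted p = 6.69e-07, limma). Hoxa11 was 4.96 higher (SE 0.47), Hoxa10 4.78 (SE 0.54), Hoxb6 4.15 (SE 0.26), Hoxb7 3.47 (SE 0.39) and Hoxa9 3.28 (SE 0.38). Ovary estrus replicate 3, with its oviduct markers, was the highest ovary library for all 6 genes, at 2.28 FPKM of Hoxa10 (0.20 to 0.32 in the other 5) and 10.98 of Hoxb7 (1.88 to 2.25). Leaving out estrus replicate 3 of both tissues kept the number of called members at 19.

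Uterus and kidney, which both take in derivatives of the intermediate mesoderm, differed in 14 of 29 members (6 higher, 8 lower in uterus), with 36.5% of all genes called, 23% as higher and 13.5% as lower. The median was -0.45 for the members and 0.39 for all genes. Hoxa11 was 3.41 higher in uterus (SE 0.46, adjusted p = 4.00e-05), where kidney had 1.58 to 2.79 FPKM. Hoxc10 was lower by 3.04 (SE 0.24), Hoxb9 by 3.02 (SE 0.26), Hoxa7 by 2.87 (SE 0.20), Hoxd8 by 2.41 (SE 0.18) and Hoxc9 by 2.24 (SE 0.33). Hoxa4, also called as lower, averaged 0.37 FPKM in uterus, so its direction was fixed by the filter. Hoxb5 to Hoxb8 were all called as higher in uterus, whereas Hoxb9 had 20.5 to 36.3 FPKM in kidney and 1.12 to 4.82 in uterus, so within HoxB the direction turned between paralogs 8 and 9.

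Aorta and vein differed in 11 of 27 members, 10 of them lower in aorta, with 11% of all genes called, 1.84% as higher and 9.12% as lower (median -0.36 for the members, -0.11 for all genes). Hoxc10 had 0 to 1.15 FPKM in aorta and 14.8 to 25.0 in vein (lower by 3.96, SE 0.19, adjusted p = 2.99e-08). Hoxc9 was lower by 3.34 (SE 0.18), Hoxa10 by 2.94 (SE 0.22), Hoxa9 by 2.27 (SE 0.16), Hoxc8 by 1.95 (SE 0.20) and Hoxd9 by 1.53 (SE 0.18). Hoxc10, Hoxc9, Hoxa10 and Hoxd3, all called, averaged 0.298, 0.468, 0.288 and 0.533 FPKM in aorta, so their direction was fixed by the filter. Hoxa4 was the only member called as higher in aorta (18.5 and 5.50 FPKM, 1.51 on the log2 scale), and 0 of 8 HoxB members were called. Without aorta estrus replicate 1 the call was made for 12 members. Brown adipocyte markers summed to 438 to 1305 FPKM in vein and to 312 to 4769 in aorta, and their part was not tested.

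WAT and BAT differed in 17 of 27 members, 15 higher and 2 lower in WAT, with 22.2% of all genes called, 15.1% as higher and 7.07% as lower (median 1.45 for the members, 0.30 for all genes). All 5 HoxD members tested were higher in WAT, but Hoxd3, Hoxd9 and Hoxd10 averaged 0.337, 0.693 and 0.0283 FPKM in BAT. They and Hoxa9, Hoxa10, Hoxa11, Hoxc9 and Hoxc10 passed the filter through WAT alone, so their direction was fixed. Hoxc10 had 28.7 to 32.7 FPKM in WAT and was at 0 in 5 of 6 BAT libraries, with 0.05 in the other. Hoxc9 had 10.8 to 17.1 FPKM in WAT and was listed at 0 in all BAT libraries. Hoxa10 had 5.92 to 16.9 FPKM in WAT and at most 0.05 in BAT. Hoxc8 (2.86, SE 0.31) and Hoxa9 (2.83, SE 0.34) were higher in WAT as well, while Hoxa4 was lower by 3.09 (SE 0.23, adjusted p = 6.20e-07), at 1.30 to 1.89 FPKM in WAT and 13.8 to 44.4 in BAT. Hoxa5 was the other member lower in WAT (by 1.15, SE 0.26). Without BAT estrus replicate 3, 16 members were called.

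Skeletal muscle and heart differed in 12 of 14 members, with 28.3% of all genes called, 5.56% as higher in skeletal muscle and 22.7% as lower. All 14 averaged 0.785 FPKM or less in heart and passed the filter through skeletal muscle, so their direction was fixed by the filter. Hoxb2 and Hoxb4 were not tested, at means of 1.33 and 1.11 FPKM in heart and 0.61 and 0.64 in skeletal muscle. Hoxc10 was at 73.1 to 87.4 FPKM in skeletal muscle and at 0 in 5 of 6 heart libraries, with 0.05 in the other. Hoxc9, Hoxa10 and Hoxc4, at means of 9.41, 9.33 and 3.94 FPKM in skeletal muscle, were listed at 0 in all heart libraries. Hoxc6 (3.36, SE 0.11) and Hoxa9 (2.41, SE 0.07) completed the 6 members with the widest gaps. Duodenum and stomach differed in 2 of 14 members (24.1% of all genes, 12% as lower), Hoxc8 (lower in duodenum by 2.48, SE 0.87, adjusted p = 0.0329) and Hoxb8 (by 1.35, SE 0.39, adjusted p = 0.0139). These 2 averaged 0.115 and 0.06 FPKM in duodenum and passed the filter through stomach alone, so their direction was fixed. Without replicate 3 of both tissues 0 of them were called. Hypothalamus and cerebrum had 0 members above the limit and were not compared. Whether the difference between phases differed between the tissues of a pair was tested for 139 combinations of member and pair. The lowest adjusted p was 0.244, for Hoxb6 in WAT against BAT (limma).

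**Figure D5:**
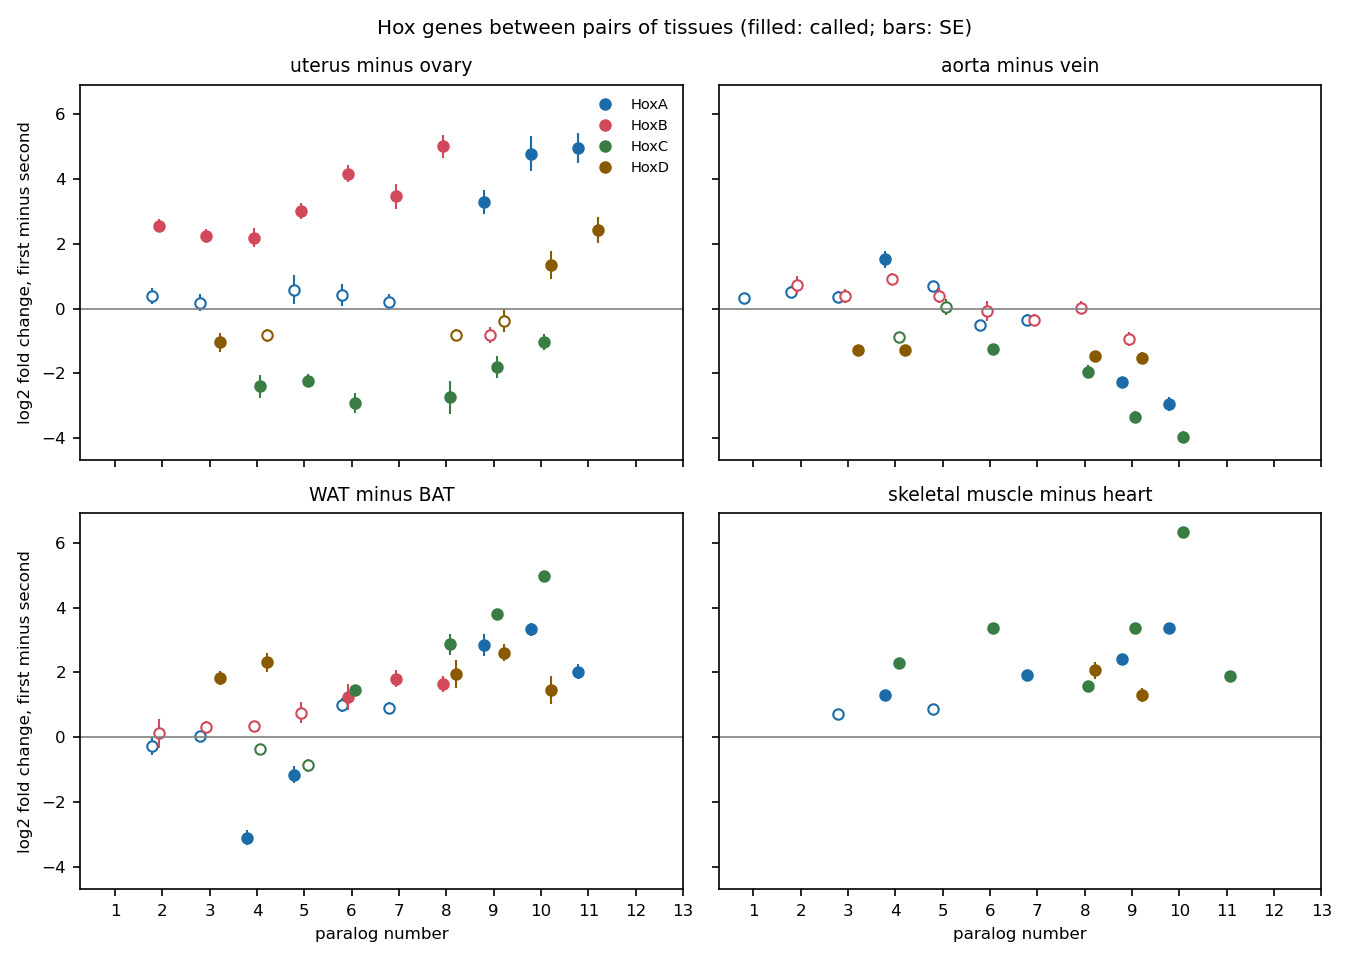
Log2 fold change (first tissue minus second, log2(FPKM + 1) scale, bars for the SE) of the tested Hox genes by paralog number in 4 pairs of tissues, with colour for the cluster and filled circles for called members. Hoxc9 and Hoxc10 lie farthest below 0 in aorta minus vein and farthest above 0 in WAT minus BAT. In uterus minus ovary HoxB lies above 0, except Hoxb9, and HoxC below.

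Lists of textbook partners and regulators of Hox genes were read in the same fits. Of 9 genes for the TALE cofactors of Hox proteins, 9 were tested in uterus and 0 called between phases (median of all genes -0.07), among them Meis1 and Meis2 at 43.98 and 39.7 FPKM. Pknox2 had an unadjusted p of 0.0171 (-1.14, SE 0.37, adjusted p = 0.897, limma). Of 17 Polycomb, trithorax and insulator genes that keep Hox clusters silent or active, 17 were tested and 0 called (median -0.11), led by Phc2, Ctcf and Men1 at 50.6, 30.4 and 22.9 FPKM. Of 16 genes for retinoic acid signalling, which sets Hox domains in the embryo, 14 were tested and 0 called (median 0.16), among them Aldh1a1 and Rarg at 46.9 and 46.5 FPKM. Of 10 genes that pattern the Müllerian duct, 9 were tested and 0 called between phases (median -0.08), led by Msx1, Pax8 and Emx2 at 264.0, 63.8 and 50.6 FPKM. Msx1, known to act in the uterus before implantation, was at 40.4 to 566.3 FPKM in the 6 libraries (-1.78, SE 0.85), and Wnt5a had an unadjusted p of 0.0215 (-1.14, SE 0.39, adjusted p = 0.897, limma). Between uterus and ovary 8 of these 9 Müllerian genes were called as higher in uterus and 1 as lower (median 3.62, all genes -0.15), 2 cofactors as higher and 1 as lower, 2 retinoic acid genes in each direction, and 0 of the 17 chromatin genes. The 3 Cdx genes, activators of posterior Hox genes in the embryo, were under 1 FPKM in uterus, and in duodenum 2 of the 2 tested were higher than in stomach.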

How the data were processed

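Total RNA of 15 tissues was sequenced on the BGISEQ-500 platform. The authors filtered reads with SOAPnuke, aligned them with Bowtie2 2.2.5 to GRCm38.p5 and quantified them with RSEM 1.2.8. The authors deposited 1 table of 90 columns, whose values are taken to be FPKM: the unit is not given in the sources used here, and the column sums differ (353706 to 623534 in 89 libraries). Read numbers could not be recovered from the values, so depth is described by the genes listed at 0, and no count model was run. All per-sample columns were used (0 not used).

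The members and gene lists were chosen with earlier results of these data known. All 38 members were accounted for: in uterus each member that passed the filter was named, in other tissues the 3 highest and those with an unadjusted p under 0.05, and in each pair of tissues up to 6 called members with the largest differences. limma 3.58.1 (R 4.3.3; lmFit, then eBayes with an intensity trend) was fitted to log2(FPKM + 1) of genes that averaged 1 FPKM or more, for each tissue (estrus minus diestrus) and each pair of tissues (phase as covariate), with Benjamini-Hochberg adjustment over all genes tested. The study's own test, DEGSeq, needs counts. Called means an absolute log2 fold change of 1 or more with an adjusted p not above 0.05. Scripts ran in Python 3.11.15 with numpy 2.4.6, pandas 2.3.3, scipy 1.17.1 and matplotlib 3.10.9 and were tested on simulated data. Alternatives were a pseudocount of 0.1, other filters, no trend, a replicate block, quantile normalization, a ratio to stroma markers, other limits, 1 fit of all libraries, and leaving out each replicate. Leaving out the libraries with marker or depth differences alone was added after seeing the data, as were differences with no filter.

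No label ties a library to its animal. Between phases, same-numbered libraries did not deviate together (r over 0.1) in all 3 pairs of any tissue. Between tissues, which share mice, 0 to 4 of the 6 same-numbered pairs did (aorta with vein 4, and the 3 diestrus pairs of skeletal muscle with heart and of hypothalamus with cerebrum), so the numbers were not taken as pairs. p-values within a tissue rest on the spread between the 3 libraries of each group, which limma moderates across genes. In a pair of tissues the spread left by tissue and phase is pooled over both tissues. The fit of all 90 libraries pools it over all 15 tissues, so its p-values do not measure the spread within uterus alone. Of 15 antisense and intergenic Hox RNAs, 0 were listed, and strand was not given in the sources used here, so reads of overlapping transcripts cannot be told apart. Hoxc12 was not analysed here. Values of 2 genes of the other lists are not reported here.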

Additional observations from a re-analysis of the deposited data

Results flagged for a closer look

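In each of the 226 combinations of an expressed member and a tissue, the 6 libraries were searched for a single one whose gap to the next, over the whole range, exceeded Dixon's critical value of 0.625. This held in 46, where chance gives about 1 in 20, and the members of a cluster are not independent of each other. Estrus and diestrus were pooled in this search.

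Ovary estrus replicate 3, the ovary library with 1778 FPKM of oviduct markers, stood far above the other 5 for 9 members of HoxA and HoxB, and was the highest library for 13 of 24 members. Its values were 2.82 FPKM for Hoxa2, 5.89 for Hoxa3, 9.17 for Hoxa5, 2.59 for Hoxa7, 7.55 for Hoxb2, 9.78 for Hoxb3, 13.3 for Hoxb6, 10.98 for Hoxb7 and 9.01 for Hoxb8. The next highest ovary library had 2.28 FPKM of Hoxa5 and 1.64 of Hoxb8. No member of HoxC or HoxD stood apart in this library.

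Uterus estrus replicate 3, with high oviduct and squamous markers, stood far above the other 5 for 6 members, and was the highest library for 12 of 28. Its values were 23.0 FPKM for Hoxa5, 3.70 for Hoxa6, 90.2 for Hoxb4, 11.8 for Hoxc4, 19.2 for Hoxc8 and 5.12 for Hoxc9, and the next highest uterus library had 3.35, 1.36, 24.6, 3.52, 1.40 and 0.57. Uterus diestrus replicate 3 stood far above the others for Hoxa10 (170.1 FPKM, next 58.4) and Hoxa11 (144.7, next 47.0).

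WAT estrus replicate 1, in which smooth muscle and stroma markers were high, stood above the other WAT libraries for 7 members, 4 of them of HoxD. It had 8.30 FPKM of Hoxa11, 8.96 of Hoxb7, 1.81 of Hoxb9, 7.65 of Hoxd3, 17.0 of Hoxd4, 18.6 of Hoxd9 and 14.4 of Hoxd10. Stomach estrus replicate 1, with the highest smooth muscle markers of stomach, stood above the rest for Hoxa4 (3.34 FPKM), Hoxb2 (7.53), Hoxb3 (4.94), Hoxb5 (4.67), Hoxb6 (7.18) and Hoxb8 (8.27). Aorta estrus replicate 1, with 15868 FPKM of smooth muscle markers, did so for Hoxb2 (26.1 FPKM), Hoxb3 (17.4), Hoxb4 (24.7) and Hoxb6 (23.2). The part of smooth muscle in these values was not tested.

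BAT estrus replicate 3, the library with 12048 genes at 0, stood above the other BAT libraries for Hoxa2 (7.61 FPKM), Hoxa4 (44.4), Hoxa5 (50.4), Hoxa7 (6.91), Hoxb5 (7.06) and Hoxc5 (19.7). Single values stood apart for Hoxc4 in BAT estrus replicate 1 (9.83 FPKM), Hoxc8 in stomach estrus replicate 3 (62.9), Hoxc8 in skeletal muscle estrus replicate 1 (3.86) and Hoxa5 in vein diestrus replicate 2 (22.7). The 2 low values were Hoxa9 in kidney estrus replicate 3 (17.3 FPKM, next 21.9) and Hoxa4 in kidney diestrus replicate 3 (2.82, next 4.18).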

How the results depend on the processing

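Between phases, 0 members were called in any tissue with every setting that kept the adjusted test within a tissue: pseudocount 0.1, other filters, no trend, quantile normalization, a replicate block and leaving out each replicate. An unadjusted p under 0.05 with no limit on the fold gave 21 calls, and 1 fit of all 90 libraries gave 13, which besides uterus and stomach were Hoxb2, Hoxb6 and Hoxd8 in BAT (6.26% of all genes called) and Hoxd10 in WAT (0.131%). The 3 BAT members were listed at 0 in the shallow estrus replicate 3, and without it their differences went from -1.30, -1.48 and -1.23 to -0.48, -0.91 and -0.34. A limit of 2 on the log2 fold change left 6 members in uterus against kidney, 4 in aorta against vein, 9 in WAT against BAT, 7 in skeletal muscle against heart and 1 in duodenum against stomach. The share of all genes at this limit is not given here, and some of these members passed the filter through 1 tissue alone. Duodenum against stomach also moved to 4 with pseudocount 0.1 and to 1 without a filter, and ranged from 0 to 4 when replicates were left out. Its Hoxc8 call was lost without a filter (adjusted p = 0.0629, limma), and without replicate 1 or 3, and its Hoxb8 call without replicate 3. A replicate block called 19, 14, 11, 17, 2, 12 and 0 members in the 7 pairs, as without it. No label ties the numbers to animals, so the block is not taken as a pairing. In uterus, differences near 0 changed sign: relative to stroma markers Hoxc11 was at 0.12, Hoxb7 at 0.17, Hoxd4 at 0.21 and Hoxb8 at 0.31. Leaving out 1 replicate gave -0.46 to 0.083 for Hoxc11, -0.028 to 0.74 for Hoxb5, -0.21 to 0.64 for Hoxd3, -0.60 to 0.13 for Hoxb7, -0.36 to 0.22 for Hoxd4 and -0.25 to 0.36 for Hoxb8. Hoxc8 and Hoxc9 fell under the filter without estrus replicate 3, and with no filter they ranged from -0.083 to 1.70 and from -0.015 to 1.15. The cause was not tested. The other 20 uterus members kept their direction in the settings tried, members that fell under the filter being compared with no filter. The number of gene and tissue pairs at the expression limit ranged from 185 to 263. With 3 libraries a group, small differences between phases were not detectable. Large ones also went uncalled, such as Hoxa11 in uterus (-2.10, adjusted p = 0.897, limma).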
